A study of Mus musculus with 12 samples.

Results

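The response of BCR-negative lymphoma cells to CHIR99021 is described here across all genes that the arrays could name. The arrays were chosen by their titles: 3 arrays of treated BCR-negative cells were set against 3 arrays of untreated BCR-negative cells, 6 of the 12 arrays in all, and each treated array was paired with the untreated array of the same lymphoma. The study measured total RNA on whole-transcript Affymetrix mouse arrays in lymphoma B cells that had or had lost their B-cell receptor (BCR). The cells were primary cultures from 3 lymphomas (2564, 2646 and 2676) of l-MYC;B1-8f mice (λ-MYC) on a C57BL/6J x BALB/c background. These mice carry a MYC transgene driven in B cells by λ light chain elements and a BCR heavy chain variable region that Cre recombinase can remove. All cultures received TAT-Cre, a Cre protein that enters cells unaided, so untreated cells were not free of Cre, and both populations of a lymphoma had the same exposure. BCR-negative and BCR-positive cells of one lymphoma grew together for 4 days, with or without CHIR99021, and were separated by flow sorting at a time when the BCR-negative cells were being lost from the mix. No dose of CHIR99021 stands in the labels. Each lymphoma gave 1 array per group, so a difference over 3 lymphomas is one over 3 tumours.

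CHIR99021 is a small molecule that blocks GSK3, a kinase that is active in resting cells and marks many proteins, among them β-catenin and MYC, for destruction. Signals through the BCR and the PI3K and AKT kinases hold GSK3 in check and keep the FOXO transcription factors out of the nucleus, so that genes of growth arrest and of feedback on PI3K are low while the receptor signals. The BCR also feeds into calcium, ERK and NF-κB signalling, each with rapidly induced target genes and with inhibitors that those same pathways switch on.

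Promoters of 4 genes that fell with CHIR99021 are shown first, from 250 bases before to 50 bases after the transcription start (RefSeq, GRCm38.p6), since they carry the motif matches counted further on. Frat1 and Frat2, which encode proteins that bind GSK3, are neighbours on chromosome 19, at chr19:41829720-41830019 (plus strand) and chr19:41848083-41848382 (minus strand). Pik3cg, a PI3K catalytic subunit, is at chr12:32208421-32208720 (minus strand) and Nfkbia, the NF-κB inhibitor IκBα, at chr12:55492598-55492897 (minus strand). Capitals mark the core of a cAMP response element (TGACGT, read from the other strand as ACGTCA), a forkhead motif (GTAAACA, read from the other strand as TGTTTAC) or, in Nfkbia, an NF-κB motif (GGGA and TTCC with any pair of bases between them, here on the other strand).
Frat1: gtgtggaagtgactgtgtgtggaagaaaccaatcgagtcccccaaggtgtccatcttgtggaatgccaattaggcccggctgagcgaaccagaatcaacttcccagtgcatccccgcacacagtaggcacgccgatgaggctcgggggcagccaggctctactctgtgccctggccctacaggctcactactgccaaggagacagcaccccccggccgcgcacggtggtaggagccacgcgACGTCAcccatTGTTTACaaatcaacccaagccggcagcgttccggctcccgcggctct
Frat2: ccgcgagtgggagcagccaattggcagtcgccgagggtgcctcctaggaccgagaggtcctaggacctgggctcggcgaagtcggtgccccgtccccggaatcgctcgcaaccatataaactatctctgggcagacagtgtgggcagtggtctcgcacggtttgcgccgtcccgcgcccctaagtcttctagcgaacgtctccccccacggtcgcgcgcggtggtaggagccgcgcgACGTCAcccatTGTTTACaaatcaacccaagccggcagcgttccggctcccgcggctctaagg
Pik3cg: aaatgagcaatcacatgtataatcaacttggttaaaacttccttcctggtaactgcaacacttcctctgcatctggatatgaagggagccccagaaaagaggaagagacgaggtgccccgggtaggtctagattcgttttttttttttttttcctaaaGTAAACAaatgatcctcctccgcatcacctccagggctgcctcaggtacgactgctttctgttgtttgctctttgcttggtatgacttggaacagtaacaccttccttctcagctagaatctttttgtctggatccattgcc
Nfkbia: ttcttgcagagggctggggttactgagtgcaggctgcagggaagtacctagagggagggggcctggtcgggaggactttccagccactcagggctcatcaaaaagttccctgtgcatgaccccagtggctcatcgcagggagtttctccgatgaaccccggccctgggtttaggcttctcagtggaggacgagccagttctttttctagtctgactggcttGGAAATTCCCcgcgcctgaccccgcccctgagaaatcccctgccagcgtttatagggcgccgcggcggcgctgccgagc
The Frat1 and Frat2 windows shared an identical run of 63 bases, which held both motifs 5 bases apart. In Frat1 the cAMP response element core began 9 bases before the start and the forkhead match 2 bases after it. The forkhead match of Pik3cg began 92 bases before its start, and the NF-κB match of Nfkbia began 29 bases before. Each motif was searched on both strands in the windows of 14749 tested genes that had one.

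The BCR label was checked on Ighv1-72, the gene symbol under which the array holds the VH186.2-type variable region of the B1-8 receptor. Its level (log2 expression, as for all levels here) in untreated BCR-negative cells was 8.60, 9.12 and 7.10 in lymphomas 2564, 2646 and 2676, which is 31.8%, 38.2% and 10.3% of the linear value in the BCR-positive cells of the same culture. In treated BCR-negative cells it was 7.26, 8.17 and 6.56, or 15%, 18.2% and 7.92% of their treated BCR-positive partners. The signal was thus lower in every BCR-negative array than in its partner but was not gone. The change of Ighv1-72 with CHIR99021 was -0.95 (SE 0.331) and did not pass the test (limma adjusted p = 0.149). Remaining receptor-positive cells and signal from related variable genes cannot be told apart here. Of 9 measured B-cell markers, 8 lay above the median of all genes, among them Cd79a, Cd79b, Pax5 and Ebf1, whereas Ms4a1 (CD20) had a mean of only 3.24. Their mean level was 8.92 to 9.23 in untreated and 8.18 to 9.07 in treated BCR-negative arrays. The 9 T-cell, 8 NK-cell, 7 neutrophil and 5 erythroid or platelet markers measured were all below that median, as were 6 of 7 dendritic cell markers, with Siglech above it. Of 9 stromal or endothelial markers only 5 were below it: Col1a1, Col1a2 and Cdh5 lay above, and Pecam1, an adhesion molecule that blood cells carry too, had a mean of 9.20 untreated and 8.55 treated (change -0.64, limma adjusted p = 0.0798). The mean level of these 9 was 4.90 to 5.06 in untreated and 4.78 to 4.98 in treated BCR-negative arrays, and none was called. Of 10 macrophage markers, 8 were below it, while Csf1r and Itgam lay above. The median change of the 10 was -0.024. Lyz2 was called higher with CHIR99021 at a low level, from 3.52, 3.57 and 3.85 to 4.28, 4.04 and 4.01. Itgam (-0.59) and Mrc1 (-0.48) went the other way and were not called. The part of cells of other types in the results was not tested. In bulk RNA, fewer cells of a type and less RNA per cell cannot be told apart.

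CHIR99021 changed 692 of 18820 genes in BCR-negative cells (3.68% called, at a limma adjusted p under 0.05), 360 higher (1.91%) and 332 lower (1.76%). These shares are the background for every count of called members below. The falls were larger than the rises. The called lower genes had a median change of -0.55, with 35 of them beyond 1 on the log2 scale (a halving), whereas the called higher genes had a median of 0.38 and 2 of them, Cd36 and Reep6, were beyond 1. All 692 moved one way in the 3 lymphomas, as 37.2% of all genes did. For 288 of the 692 (41.6%), the 3 treated levels did not overlap the 3 untreated levels, against 8.65% of all genes. Lymphoma 2676 responded least by size: 38 genes differed by more than 1 between its treated and untreated arrays, compared with 175 in lymphoma 2564 and 151 in lymphoma 2646. With another scaling, cyclic loess, the calls were split as 232 higher and 415 lower, so 35.9% rather than 52% of the called genes were higher.

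**Figure D1:**
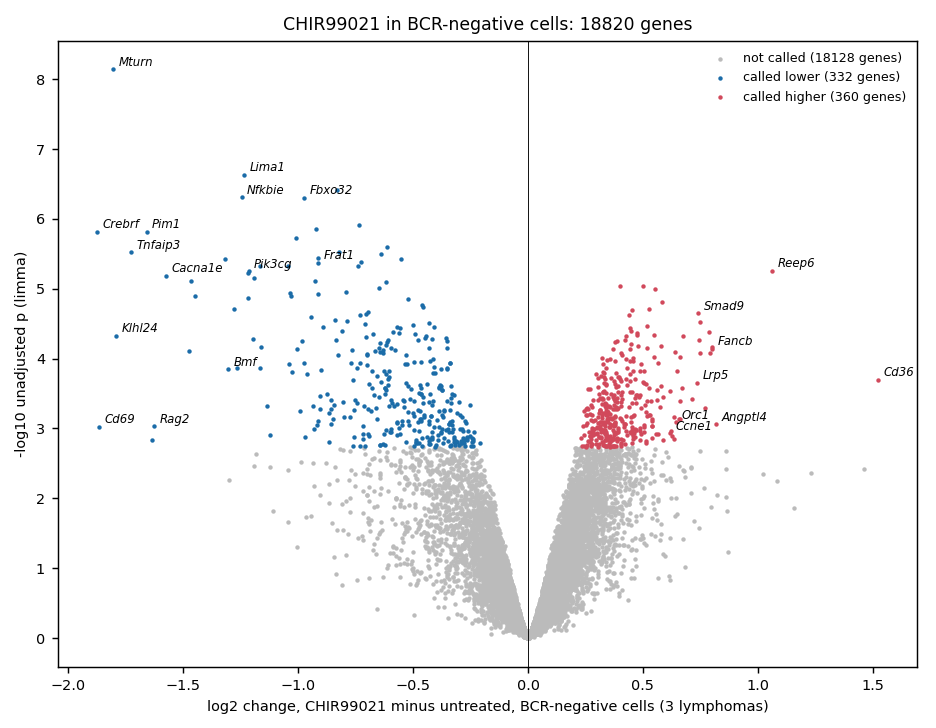
Each point is 1 of 18820 genes, placed by its log2 change with CHIR99021 in BCR-negative cells (x axis) and by -log10 of the unadjusted limma p (y axis); blue marks 332 genes called lower and red 360 called higher. The lower genes reach further from 0 (Crebrf at -1.88) than the higher ones (Cd36 at 1.52).

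The number of calls changed with the pairing and with the arrays left out, and was lowest without lymphoma 2646. Without lymphoma 2646 no gene was called by limma (2223 at an unadjusted p under 0.05), without lymphoma 2564 the count was 113, and without lymphoma 2676 it was 175. Leaving out single arrays gave 57 calls without the treated BCR-negative array of 2564, 51 and 111 without the treated and the untreated BCR-negative array of 2646, and 495 without the untreated BCR-negative array of 2676. Among BCR-positive arrays, the count was 432 without the treated array of 2646, and 390 and 426 without the untreated and the treated array of 2676. A fit with no term for the lymphoma called 3 genes, Mturn, Fbxo32 and Naa20, and one on the 6 BCR-negative arrays alone called 29. Every one of the 692 genes kept its sign in each alternative in which it was tested, but many alternatives could not have changed it. Another term for the lymphoma leaves the size of a change as it is. As each of the 692 moved one way in the 3 lymphomas, leaving out a lymphoma cannot turn its sign. Since no gene was called without lymphoma 2646, none of the counts of called members given below holds without it.

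**Figure D2:**
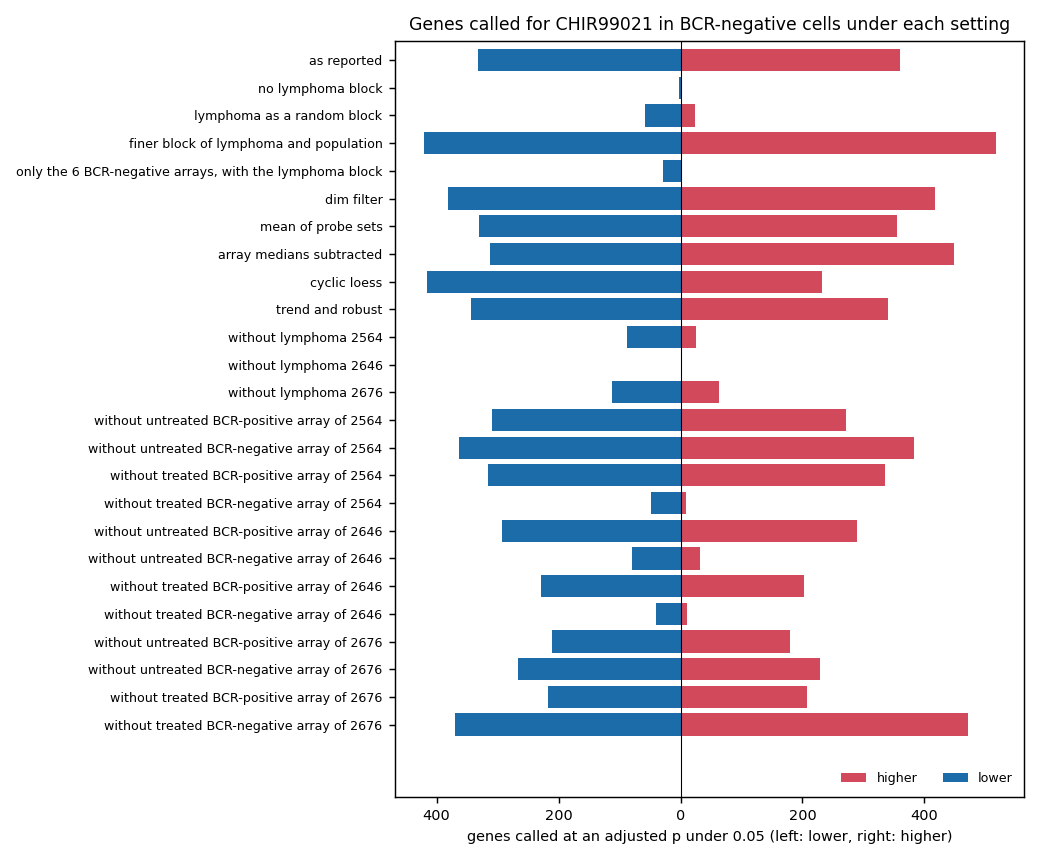
Bars give the number of genes called lower (left, blue) and higher (right, red) for CHIR99021 in BCR-negative cells as reported and under 24 alternatives (y axis). Counts run from 0 without lymphoma 2646 to 938 with a finer block, 517 higher and 421 lower.

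The 15 largest falls were led by Crebrf, which encodes a repressor of the stress factor CREB3. Its level was 7.40, 7.91 and 8.13 in untreated and 5.24, 5.99 and 6.57 in treated BCR-negative cells of lymphomas 2564, 2646 and 2676. The groups did not overlap, and Crebrf fell by 1.88 (SE 0.181, limma adjusted p = 0.0032), a 3.67-fold difference. Mturn (maturin, a protein studied in neural and blood cell differentiation) had the smallest adjusted p of all genes, 0.000135. Its levels were 7.31, 7.61 and 7.41 without and 5.31, 5.69 and 5.92 with CHIR99021, a fall of 1.80 (SE 0.0974) that varied little between lymphomas. Other large falls with groups apart were those of Calcoco1 (a receptor in autophagy), which fell by 1.47, Coq8a (coenzyme Q synthesis), by 1.45, Dyrk1b (a kinase of quiescent cells), by 1.48, Fbxl20 (a ubiquitin ligase subunit), by 1.32, and Pdcd4 (an inhibitor of translation initiation), by 1.28. In 13 of the 15 the groups were apart; the exceptions were Pinlyp and Rag2.

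Components of the GSK3 and β-catenin pathway mostly did not pass the test. Of 31 measured, 1 rose and 3 fell (12.9% called, against 3.68% of all genes). The list's median was -0.009 (0.004 with array medians subtracted), beside 0.01 over all genes. Gsk3b, the measured GSK3 kinase, had levels of 9.04, 9.09 and 9.53 without and 9.003, 9.16 and 9.61 with the inhibitor, a change of 0.04 (SE 0.0527); Gsk3a was not measured here. Ctnnb1 (β-catenin) changed by -0.01 (SE 0.0537). None of the 8 members of the destruction complex and its ubiquitin ligase was called by limma (2 had an unadjusted p under 0.05).

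The called members of this pathway sat at its edges. Frat1 fell from 8.70, 7.24 and 7.82 to 7.91, 6.21 and 6.90, and Frat2 from 7.01, 6.71 and 6.73 to 6.45, 5.98 and 6.17. Every lymphoma went down for both, although the Frat1 groups overlap because the lymphomas start at different levels. The changes were -0.91 for Frat1 (SE 0.0991, limma adjusted p = 0.00404) and -0.62 for Frat2 (SE 0.111, limma adjusted p = 0.0218). The genes are close paralogues, and their probe sets may share signal. Tcf7l2, a DNA-binding partner of β-catenin, fell by 0.66 (SE 0.135), with 7.51, 7.60 and 7.41 untreated against 7.03, 6.61 and 6.91 treated and no overlap. Lrp5, a Wnt co-receptor, rose by 0.74 (SE 0.129), from 8.25, 7.27 and 7.41 to 9.06, 8.29 and 7.78. Its paralogue Lrp6 changed by 0.07 and was not called.

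Transcriptional targets of β-catenin had 9.09% of members called, against 3.68% of all genes. No member was called without any 1 of the lymphomas. Of 22 measured, Znrf3, a ubiquitin ligase that removes Wnt receptors, rose by 0.28 and Cd44, an adhesion molecule, fell by 0.24; the other members were not called, and the median was 0.01. Axin2, the most widely used target, was 5.32, 5.14 and 5.04 without and 5.25, 5.46 and 5.05 with CHIR99021, groups that overlap, for a change of 0.08 (SE 0.104, limma adjusted p = 0.764). Lef1 changed by -0.01 (SE 0.0734). Both lay close to the median level of an array, which was 4.71 to 4.92. In glycogen metabolism, the process in which GSK3 was first known, 1 of 17 genes was called: Ugp2, which makes UDP-glucose, rose by 0.45. Mouse Myc was 4.47, 4.17 and 4.27 without and 4.32, 4.02 and 4.09 with the inhibitor (change -0.16, limma adjusted p = 0.139). The transgene carries human MYC, which these values need not report.

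FOXO target genes fell wherever they were called. Of 42 measured genes, which include 3 FOXO factors, 10 fell and none rose (23.8% called). Of the 42, 37 had a negative change, as 45.8% of all genes did, and the median was -0.37. By lymphoma the median was -0.34 in 2564, -0.53 in 2646 and -0.28 in 2676. The calls came down to 3, 0 and 6 without lymphomas 2564, 2646 and 2676; to 3 without the treated BCR-negative array of 2564, 2 without either BCR-negative array of 2646 and 6 without the treated BCR-positive array of 2676. Growth arrest genes held 5 of the 10: Ccng2 (an unconventional cyclin linked to arrest) fell by 1.03, Mxd4 (a MAX partner that opposes MYC) by 0.98, Btg1 (an antiproliferative factor) by 0.73, and Cdkn1b and Gadd45a are given with the cell cycle and p53 genes.

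Further FOXO targets encode turnover proteins, Klhl24 and Fbxo32. Klhl24, a ubiquitin ligase adaptor, went from 9.44, 10.20 and 10.09 to 7.01, 8.42 and 8.92, with no overlap, a fall of 1.79 (SE 0.258, limma adjusted p = 0.0114). Fbxo32 (atrogin-1) went from 6.05, 6.20 and 6.02 to 5.18, 5.13 and 5.04. It was among the most even changes of all, -0.97 (SE 0.0831), and was called in 23 of 24 alternatives. Of the genes that feed back on PI3K and insulin signalling, Pik3ip1, a membrane inhibitor of PI3K, fell by 1.17 (SE 0.128), from 7.40, 7.44 and 8.10 to 6.00, 6.35 and 7.08. Irs2, an adaptor of the insulin receptor, fell by 0.76 and its groups overlap. Rag2, part of the recombinase that assembles receptor genes, fell by 1.63 (SE 0.347). Its levels of 7.48, 9.43 and 7.53 became 4.95, 8.44 and 6.17, all down but overlapping between lymphomas.

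The factors themselves did not pass. Foxo1 was 9.36, 10.08 and 9.49 without and 9.02, 9.26 and 9.01 with CHIR99021; the groups were apart, and the change of -0.54 had a limma adjusted p of 0.0527. Foxo3 changed by -0.30 (limma adjusted p = 0.0653). No called gene came from the FOXO targets that act in cell death or oxidative stress: Bcl2l11 (BIM) changed by -0.03, Bbc3 (PUMA) by -0.26 and Bcl6 by 0.33. The YPEL genes, small conserved proteins of uncertain function, were looked at after their values were seen. Of 5 members 3 were called lower, against 1.76% of all genes, led by Ypel3 (-1.04, SE 0.126). Ypel2 (-0.73) and Ypel5 (-0.90) were the other called members.

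Of the NF-κB genes, 3 of 4 measured subunits and 3 of 9 measured inhibitors fell with CHIR99021, and none of 17 target genes was called. Together, 6 of 30 fell and none rose (20% called), and the median was -0.15. The calls came down to 3, 0 and 3 without lymphomas 2564, 2646 and 2676, to 2 without the treated BCR-negative array of 2564 or either of 2646, and to 3 without the untreated one of 2676. Among inhibitors, Tnfaip3 (A20), which ends NF-κB signalling by editing ubiquitin, was 6.38, 8.68 and 7.03 in untreated and 4.90, 6.36 and 5.65 in treated cells. Each treated level lay below all untreated ones, and the fall was 1.73 (SE 0.18, limma adjusted p = 0.00404). Nfkbie (IκBε) fell by 1.25 (SE 0.106, limma adjusted p = 0.00188), from 7.24, 8.28 and 7.94 to 6.26, 6.88 and 6.59. Nfkbia (IκBα) was 9.15, 9.51 and 9.28 and became 8.28, 8.56 and 8.38, groups well apart, a fall of 0.91 (SE 0.179). Nfkbib (IκBβ), by comparison, changed by 0.01 (SE 0.0589) and was not called.

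Of the 4 measured NF-κB subunits, 3 fell. Relb was 5.51, 5.86 and 5.67 without and 4.91, 5.10 and 5.22 with the inhibitor, which do not overlap (change -0.60, SE 0.117). Nfkb2, which encodes p100 and p52, fell by 0.72 (SE 0.139) and Rel (c-Rel) by 0.39 (SE 0.077), both with overlapping groups. Rela changed by -0.06 and was not called, and Nfkb1 was not measured here. None of the 17 measured NF-κB targets passed in limma (7 had an unadjusted p under 0.05); their median was -0.04.

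**Figure D3:**
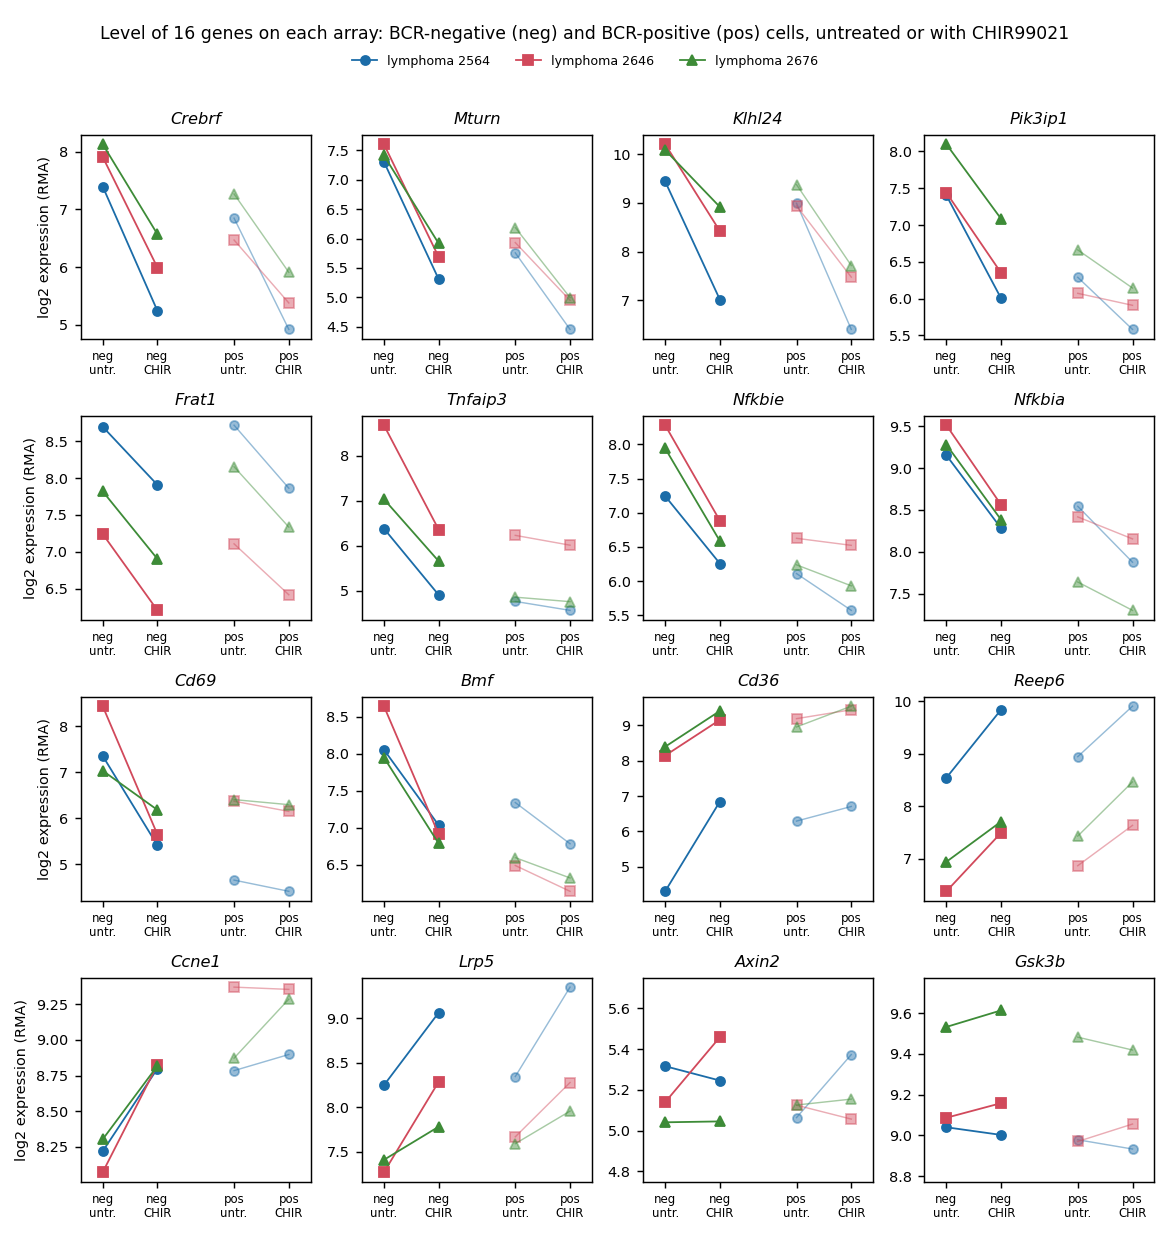
Log2 expression (y axis) of 16 genes on all 12 arrays, with lines joining the untreated and treated array of one lymphoma (blue 2564, red 2646, green 2676) for BCR-negative cells at left and BCR-positive cells, paler, at right. Crebrf, Mturn, Tnfaip3, Nfkbie and Nfkbia fall in every lymphoma of the BCR-negative cells without overlap, whereas the levels of Axin2 and Gsk3b overlap.

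Immediate early genes, which cells switch on within minutes of a signal, had the lowest median of the 34 lists, -0.58. Of 36 measured, 5 fell, none rose (13.9% called) and 33 had a negative change. The lymphomas differed in size: the list's median was -0.99 in 2646, -0.45 in 2564 and -0.17 in 2676. Without lymphoma 2646 the median was -0.32 and no member was called; without 2564 none was called either, and without 2676 there were 6. Single arrays moved the count too, to 0 without the treated BCR-negative array of 2564 or 2646, 2 and 9 without the untreated ones of 2646 and 2676, and 3 without the treated BCR-positive array of 2646 or either BCR-positive array of 2676. Cd69, a surface marker of recent activation, went from 7.36, 8.44 and 7.04 to 5.41, 5.65 and 6.18. Its groups did not overlap, and it fell by 1.87 with a wide SE of 0.398 (limma adjusted p = 0.0373). Egr1, an ERK-induced transcription factor, fell by 1.27 (SE 0.208), from 8.19, 10.19 and 6.93 to 7.11, 8.45 and 5.95. Zfp36 (tristetraprolin, which destabilises mRNAs) fell by 1.20 (SE 0.174), Nr4a2, a nuclear receptor, by 0.72 (SE 0.153), and Dusp2, a phosphatase of ERK, from 8.03, 8.84 and 8.07 to 7.12, 7.39 and 7.42, each with groups apart. None of the 8 AP-1 genes was called by limma, although 6 had an unadjusted p under 0.05. Fosb, for example, was 10.23, 11.26 and 9.40 untreated and 9.003, 8.80 and 9.17 treated (change -1.30, limma adjusted p = 0.0815). Fos changed by -0.85 and Jun by -0.66, and Fos was almost level in lymphoma 2676 (9.001 and 9.03).

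**Figure D4:**
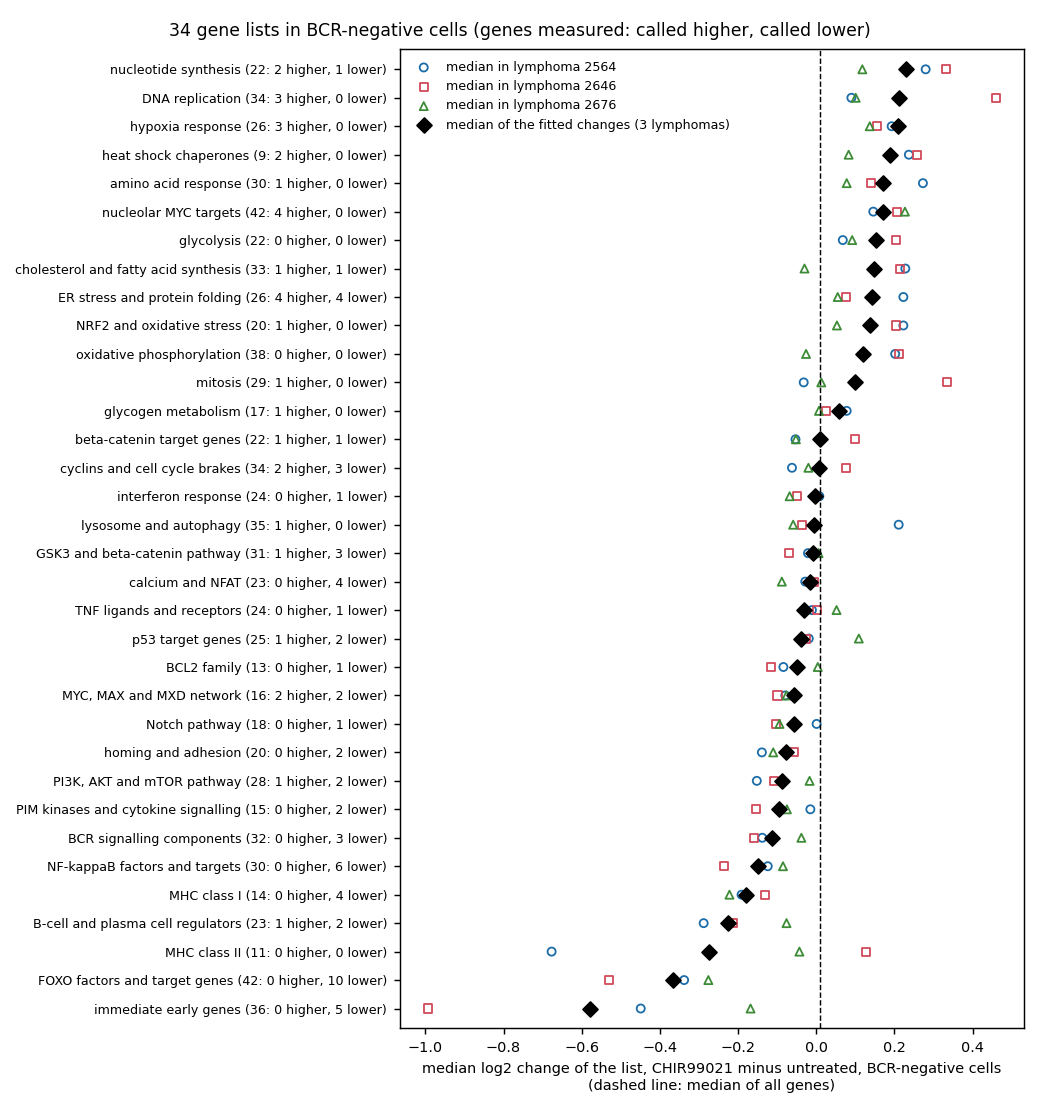
Median log2 change (x axis) of 34 gene lists in BCR-negative cells (y axis, with genes measured and called): black diamonds from the fit, open symbols in each lymphoma; the dashed line is the median of all genes, 0.01. Immediate early genes (-0.58) and FOXO factors and targets (-0.37) lie furthest to the left.

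BCR signalling components moved downward where called. Of 32 measured, 3 fell (9.38% called, against 3.68% of all genes), and the median was -0.11. Cd79b, a signalling chain of the receptor, was 11.45, 11.70 and 11.60 without and 11.03, 11.40 and 11.34 with CHIR99021. The groups were apart, but the fall was small, 0.33 (SE 0.0604, limma adjusted p = 0.024). Its partner Cd79a changed by -0.17 (SE 0.0773) and was not called. Syk, the kinase recruited to these chains, fell by 0.39 (SE 0.0688), and Prkcb, a protein kinase C that links the receptor to NF-κB, fell by 0.87 (SE 0.174), from 6.91, 6.36 and 7.89 to 5.89, 5.58 and 7.09. Ighm changed by -0.83 (SE 0.492) on 1 probe set through lymphoma 2646 alone (7.31 to 5.16), while another probe set of the gene changed by -0.05; it was not called. Igkc changed by 0.39 and was not called.

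Of 28 measured PI3K, AKT and mTOR genes, 2 fell and 1 rose (10.7% called). Pik3cg (p110γ) fell by 1.22 (SE 0.136, limma adjusted p = 0.00439), with 7.80, 9.81 and 9.23 untreated against 6.25, 8.82 and 8.13 treated. Every lymphoma fell, and the groups overlap because lymphoma 2564 starts lower. Inppl1 (SHIP2, a lipid phosphatase) fell by 0.33, and Sgk3, a kinase that answers to PI3K lipids, rose by 0.55. Sgk1, its paralogue, changed by -0.54 and was not called. Of 23 calcium and NFAT genes, 4 fell and none rose (17.4% called). Cacna1e, a voltage-gated calcium channel, was 7.48, 7.26 and 6.85 and became 5.39, 5.63 and 5.84, without overlap, a fall of 1.58 (SE 0.18). Itpr2, a calcium release channel, fell by 0.47, Camkk2, a calcium-dependent kinase, by 0.32 and the channel subunit Cacna2d4 by 0.41.

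The PIM kinases, survival kinases induced by cytokines, divided by member. Pim1 fell by 1.66 (SE 0.16, limma adjusted p = 0.0032), from 8.82, 10.50 and 10.20 to 7.47, 8.31 and 8.76, with no overlap. Pim2 fell by 0.66 (SE 0.13), from 8.85, 8.83 and 8.43 to 8.61, 7.79 and 7.72, which overlap. Pim3 changed by -0.03 (SE 0.0694) and was not called. Of 23 regulators of B and plasma cells, 2 fell and 1 rose (13% called): Ikzf3 (Aiolos) fell by 0.65, Foxp1 by 0.41, and Creld2, which is also a chaperone of the endoplasmic reticulum, rose by 0.39. The B-cell factors Pax5 (-0.42, limma adjusted p = 0.0725) and Ebf1 (-0.77, limma adjusted p = 0.139) and the plasma cell factor Prdm1 (-1.12, limma adjusted p = 0.0657) were not called. Ebf1 dropped from 10.48 to 8.95 in lymphoma 2564, whereas in 2676 it went from 10.84 to 10.59.

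In the BCL2 family, 1 of 13 genes was called (7.69%). Bmf, a BH3-only protein that promotes cell death, was 8.06, 8.64 and 7.95 without and 7.04, 6.91 and 6.79 with CHIR99021. Its treated levels lay below all untreated ones, and it fell by 1.30 (SE 0.215, limma adjusted p = 0.0164), a 2.47-fold difference. The survival gene Mcl1 changed by -0.19 and was not called. Of 25 p53 targets, 2 fell and 1 rose (12% called): Trp53inp1, which promotes autophagy and death, fell by 0.98 (SE 0.145), the growth arrest gene Gadd45a by 0.71, and Ccng1 rose by 0.31. Cdkn1a (p21) was 5.74, 8.44 and 5.94 without and 8.53, 9.31 and 6.66 with the inhibitor. It was higher in every lymphoma, but its change of 1.46 was not called (SE 0.386, limma adjusted p = 0.0678); lymphoma 2564 moved far more than the others. Hmox1 (heme oxygenase) behaved alike, with a change of 1.16 that was not called and a move from 6.16 to 8.51 in lymphoma 2564.

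Genes of the autophagy machinery were looked at after their values were seen. Of 17 measured ATG genes, 5 fell and 1 rose, beside 1.76% lower and 1.91% higher over all genes. Atg13, a subunit of the kinase complex that starts autophagy, was 8.96, 9.27 and 9.34 untreated and 8.03, 8.18 and 8.61 treated, apart in all lymphomas, a fall of 0.91 (SE 0.112, limma adjusted p = 0.00607). Atg101 of the same complex fell by 0.61 (SE 0.0629), the lipid transfer protein Atg2a by 0.74 (SE 0.0812), the membrane protein Atg9a by 0.34 and Atg16l2 by 0.41, while the conjugating enzyme Atg3 rose by 0.32. Wdr45, a phosphoinositide-binding partner of Atg2a, fell by 1.04 (SE 0.114), and the receptors Nbr1 and Tax1bp1 fell by 0.66 and 0.55. Pink1, the kinase that marks damaged mitochondria, fell by 0.79 (SE 0.0958). Rb1cc1 (FIP200) fell by 0.47 on its brighter probe set, but its second probe set changed by 0.09. In the list of lysosome and autophagy genes drawn up separately, 1 of 35 was called, the lysosomal enzyme Gusb, which rose by 0.34. Under cyclic loess 6 ATG genes were lower and none higher, and 3, 0 and 3 were lower without lymphomas 2564, 2646 and 2676.

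The largest rise was that of Cd36, a scavenger receptor that takes up fatty acids. Its level was 4.30, 8.15 and 8.40 in untreated and 6.84, 9.16 and 9.41 in treated BCR-negative cells. All lymphomas rose, the groups overlap, and lymphoma 2564 started far below the others; the change was 1.52 (SE 0.263, limma adjusted p = 0.0195). Reep6, a protein that shapes the endoplasmic reticulum, rose by 1.06 (SE 0.118, limma adjusted p = 0.00439), from 8.54, 6.38 and 6.94 to 9.84, 7.49 and 7.71. Angptl4, a secreted inhibitor of lipoprotein lipase, rose by 0.82 (SE 0.172). Kbtbd8, a ubiquitin ligase adaptor, rose from 5.69, 5.73 and 5.72 to 6.32, 6.79 and 6.43 (0.80, SE 0.121), and Fancb, of the Fanconi DNA repair complex, from 6.75, 6.25 and 6.36 to 7.28, 7.33 and 7.16 (0.80, SE 0.122). Both had groups apart, as had Smad9, a BMP signal transducer, with a rise of 0.74 (SE 0.0975). Abi2 (actin regulation), Tspan4 (a tetraspanin), Gemin6 (spliceosome assembly), Rrbp1 (ribosome binding at the endoplasmic reticulum) and Alg6 (glycosylation) rose by 0.79, 0.79, 0.75, 0.71 and 0.68. In 6 of the 15 largest rises the groups did not overlap.

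Genes of growth and replication had small positive changes, of which few passed the test. All 42 measured nucleolar targets of MYC had a positive change, as 54.2% of all genes did, with a median of 0.17, and 4 rose (9.52% called). Under cyclic loess 40 were positive, 2 were called and the median was 0.12; without any 1 lymphoma none was called. Mrto4 and Wdr74, which act in assembly of the large ribosomal subunit, rose by 0.37 and 0.36, Wdr75, of small-subunit processing, by 0.34 and Rrn3, a polymerase I factor, by 0.27 (SE 0.0546). Mitochondrial ribosomal proteins, chosen after their values were seen, had 10 of 74 genes called higher and none lower, against 1.91% higher over all genes. Among the 10 were Mrpl18 (0.44, SE 0.0707) and Mrps12 (0.39, SE 0.0736). Under cyclic loess 8 were higher and 1 lower, and without lymphomas 2564, 2646 and 2676 there were 0, 0 and 3 higher. Cytosolic ribosomal proteins had no called gene among 68 and a median of -0.03. The 38 measured genes of oxidative phosphorylation were all positive with a median of 0.12, yet limma called none (13 had an unadjusted p under 0.05); the median was -0.03 in lymphoma 2676 and 31 were positive under cyclic loess. That count of 0 moved most with 1 array: without the treated BCR-negative array of 2676, 8 were called higher and the median was 0.19. Without the untreated BCR-negative array of 2564 or of 2676, 1 was called higher. The count was also 1 with the finer block, a filter on dim genes or trended variances.

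In the MYC, MAX and MXD network, 2 of 16 genes rose and 2 fell (25% called). Without lymphoma 2564 or 2646 none of the 16 was called, and without 2676 there were 0 higher and 2 lower. Mxd4 (above) and Mnt, both MAX partners that oppose MYC, fell by 0.98 and 0.37, while Mlx, another factor of the network, rose by 0.32 and Skp2, a ubiquitin ligase subunit that acts on MYC and p27, by 0.40. Among cyclins and cell cycle brakes, 2 of 34 rose and 3 fell (14.7% called). Ccne1 (cyclin E1) was 8.22, 8.07 and 8.30 without and 8.80, 8.83 and 8.82 with CHIR99021, nearly one level in the 3 lymphomas after treatment, and rose by 0.62 (SE 0.136, limma adjusted p = 0.0409). Cdkn1b (p27), which inhibits cyclin E complexes, fell by 0.49 (SE 0.111), from 9.94, 10.08 and 9.63 to 9.36, 9.39 and 9.43, also apart. Of the D cyclins, Ccnd2 (0.29) and Ccnd3 (-0.10) were not called.

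DNA replication genes rose in 3 of 34 cases (8.82% called), and 30 had a positive change. Orc1 and Orc2, subunits of the origin recognition complex, rose by 0.65 (SE 0.135) and 0.37 (SE 0.0787), and Gins3, of the replicative helicase, by 0.41 (SE 0.094). Orc1 went from 7.40, 6.11 and 6.73 to 7.77, 7.10 and 7.30, up in each lymphoma with overlap between them. The list's median of 0.21 was 0.46 in lymphoma 2646, 0.09 in 2564 and 0.10 in 2676, and it was 0.11 without lymphoma 2646. None of these genes was called without any 1 of the lymphomas. Of 29 mitosis genes, Anln (anillin, of the cleavage furrow) was called higher by 0.37. Nucleoporins, chosen after their values were seen, had 3 of 18 called higher, against 1.91% of all genes. The called nucleoporins were Nup107, Nup37 and Nup43, with rises of 0.42, 0.43 and 0.46. No nucleoporin was called without any 1 of the lymphomas.

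Genes of protein folding went both ways. Of 26 measured, 4 rose and 4 fell (30.8% called). Without lymphomas 2564, 2646 and 2676 none was called higher, and 1, 0 and 2 were lower. Leaving out the treated BCR-negative array of 2564 or of 2646 left 0 higher and 1 lower. Pdia3, a disulfide isomerase, rose by 0.52 (SE 0.0982), from 10.19, 9.56 and 9.92 to 10.68, 10.24 and 10.30, and the chaperones Dnajb11 (0.45) and Creld2 (0.39) rose too, as did Derl2 (0.33). Dnajb9, a stress-induced co-chaperone of BiP, fell by 0.93 (SE 0.201), from 9.54, 10.19 and 9.45 to 8.53, 8.61 and 9.26, and Herpud1 (0.46) and Derl3 (0.86), which act in degradation at the endoplasmic reticulum, fell as well, beside Crebrf. Among heat shock chaperones, Hsph1 and Hspd1 rose by 0.67 and 0.30 of 9 measured (22.2% called). No heat shock chaperone was called without any 1 of the lymphomas. Of 26 hypoxia genes 3 rose (11.5% called): Ero1a, an oxidase of disulfide formation, by 0.44, the oxygen sensor Egln1 by 0.30 and Higd1a by 0.43, whose second probe set changed by 0.07.

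Metabolic lists had calls in numbers that changed when single arrays were left out. Of 22 nucleotide synthesis genes, Gmps and Impdh1 of the guanine branch rose by 0.31 and 0.34 and the CTP synthase Ctps2 fell by 0.31. Together 13.6% of this list was called, against 3.68% of all genes. Mthfd2, a mitochondrial folate enzyme, was the called gene of 30 in the amino acid response and rose by 0.54 (SE 0.111). In cholesterol and fatty acid synthesis, Sqle, which makes the first oxygenated sterol precursor, rose by 0.34 and Insig1, which holds back SREBP, fell by 0.35, out of 33. Of 20 NRF2 genes, Gclm, a subunit of the enzyme that starts glutathione synthesis, rose by 0.38. None of 22 glycolysis genes was called by limma (7 had an unadjusted p under 0.05); Hk2 (0.45, limma adjusted p = 0.0877) and Pfkp (0.32, limma adjusted p = 0.111) had the smallest p of them. Without the treated BCR-negative array of 2676, the genes called higher numbered 3 in glycolysis, 3 in nucleotide synthesis, 3 of the NRF2 genes, 4 in the amino acid response (with 2 lower) and 4 in cholesterol and fatty acid synthesis (with 1 lower). Without the untreated BCR-negative array of 2676, 5 cholesterol and fatty acid genes were higher and none lower. Other arrays had the opposite effect. Without the treated BCR-negative array of 2564 or 2646, or the untreated one of 2646, no gene of these lists was called.

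The called genes of antigen presentation by MHC class I fell. Of 14 measured, 4 fell and none rose (28.6% called): the heavy chains H2-K1 and H2-T23 fell by 0.62 and 0.62, and Tapbp and Tap2, which load peptides, by 0.43 and 0.24. H2-K1 went from 8.15, 8.80 and 9.90 to 7.38, 7.92 and 9.69, down in each lymphoma but by little in 2676. H2-K2, chosen after its values were seen, fell by 0.83; MHC heavy chains are near-identical and their probe sets can share signal. Without lymphomas 2564, 2646 and 2676 the list had 1, 0 and 1 called genes, and with array medians subtracted it had 2. None of the 11 class II genes was called by limma (1 had an unadjusted p under 0.05); Cd74 went from 8.15 to 6.38 in lymphoma 2564 and was nearly level in the others (6.47 to 6.62 and 8.62 to 8.74). Single calls stood in other lists: S1pr4, a sphingosine phosphate receptor, fell by 0.65 (SE 0.0985), Tnfrsf14 (HVEM) by 0.47, Gbp3, an interferon-induced GTPase, by 0.48, and Maml2, a co-activator of Notch, by 0.94 (SE 0.181) on its brighter probe set and by 0.70 on the other.

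The forkhead motif GTAAACA was found in the promoter window of 20 of 269 called lower genes that had one (7.43%), of 5 of 298 called higher genes (1.68%) and of 3.5% of all. The genes with a match included Frat1, Frat2, Pik3cg, Pim1, Ypel3, Maml2, Gbp3 and Btg1. Among the called FOXO targets, only Btg1 held a match, which began at position -204 from its start. In the windows searched, no forkhead match was found for the others. These were Klhl24, Fbxo32, Pik3ip1, Ccng2, Mxd4, Cdkn1b, Gadd45a, Irs2 and Rag2. An E-box, CACGTG, stood in 16.7% of called lower, 13.8% of called higher and 9.57% of all windows, and the cAMP response element core in 12.3%, 13.4% and 10.3%. The TCF and LEF motif CTTTGAT was in 4.46%, 1.68% and 3.67%. The NF-κB motif, added after the values were seen, was in 7 of 269 called lower windows (2.6%), 1 of 298 called higher (0.336%) and 1.64% of all, and Nfkbia and Nfkb2 were among the lower genes with a match. No test was made of these shares; a match describes letters in a window and is no evidence of binding.

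In the BCR-positive cells of the same cultures, CHIR99021 called 14 genes (0.0744%), 1 higher (0.00531%) and 13 lower (0.0691%). A difference in the number of calls does not show a difference in response, and the interaction, which tests that difference for each gene, called no gene (0%; 990 genes at an unadjusted p under 0.05 in limma). Lima1, an actin-binding protein, had its smallest adjusted p, 0.276: it fell by 1.23 in BCR-negative cells (6.87, 6.82 and 6.45 to 5.67, 5.40 and 5.36) and changed by -0.14 in BCR-positive cells. Without the untreated BCR-negative array of lymphoma 2676, the interaction called 2 genes, Cacna1e and Nyx. All 15 of the largest falls and all 15 of the largest rises had the same sign in both populations, and 4 falls and 1 rise were called in both. The share with the same sign over all genes was not counted. Among the 692 called genes, 8 had the opposite sign in all 3 BCR-positive pairs.

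**Figure D5:**
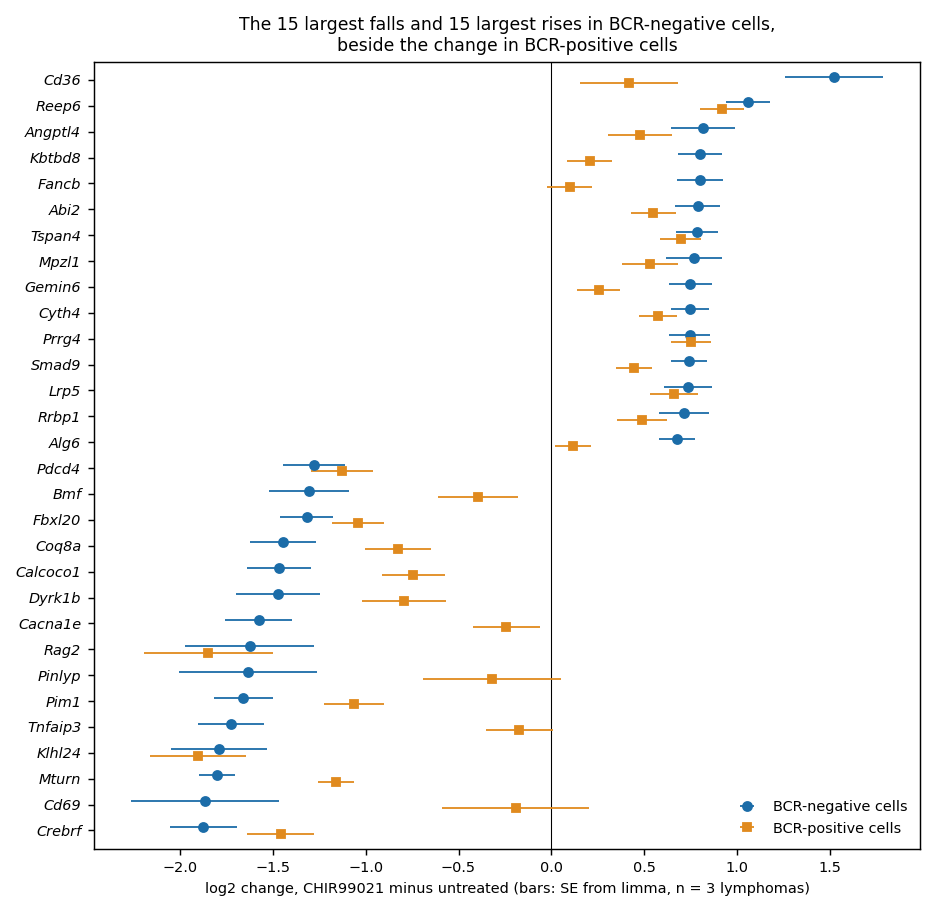
Log2 change with CHIR99021 (x axis; bars, SE from limma, n = 3 lymphomas) of the 15 largest falls and 15 largest rises of BCR-negative cells (blue circles), beside their change in BCR-positive cells (orange squares). Klhl24 (-1.79 and -1.90) and Prrg4 (0.75 and 0.75) lie close together, whereas Tnfaip3 (-1.73 and -0.17) and Cd69 (-1.87 and -0.19) lie apart, a gap that the interaction did not call.

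Gene by gene, some changes had values close together in both populations. Klhl24 changed by -1.79 in BCR-negative and -1.90 in BCR-positive cells, Frat1 by -0.91 and -0.79, Pik3cg by -1.22 and -1.04, Reep6 by 1.06 and 0.92 and Lrp5 by 0.74 and 0.66. For 4 other genes, of which Tnfaip3, Nfkbie and Cacna1e are among those of smallest p in the interaction, the values stood further apart, with -1.73 and -0.17 for Tnfaip3, -1.25 and -0.32 for Nfkbie, -1.58 and -0.24 for Cacna1e and -1.87 and -0.19 for Cd69. Their interaction terms were -1.55, -0.93, -1.34 and -1.67, none called (limma adjusted p of 0.83 for Tnfaip3 and Nfkbie and 0.928 for Cacna1e and Cd69). The 17 NF-κB targets had a median change of -0.04 in either population. Replication genes had a median change of 0.21 in BCR-negative and -0.09 in BCR-positive cells, and the interaction was positive for all 34 of them, as for 10167 of 18820 genes. Pim2 was called lower in BCR-negative cells and was higher in all 3 BCR-positive pairs (-0.66 and 0.21, interaction limma adjusted p = 0.928).

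The treated BCR-negative cells were also set beside the untreated BCR-positive cells, a comparison that shares the treated arrays with the one above. It called 3 genes (0.0159%), all lower: Frat1 (-0.99), Hivep2, a zinc finger protein (-0.88), and Ighv1-72 (-3.05). In limma 1644 genes had an unadjusted p under 0.05, and a small number of calls does not show that the groups are alike. Between the untreated populations, BCR-negative cells differed from BCR-positive cells in 791 genes (4.2%), 359 higher (1.91%) and 432 lower (2.3%). The untreated BCR-negative arrays enter that difference and the CHIR99021 effect alike, so values are given side by side only. Tnfaip3 was 2.09 higher in untreated BCR-negative cells and its treated levels (4.90, 6.36 and 5.65) stood near the untreated BCR-positive ones (4.76, 6.23 and 4.85). For Mturn, the treated levels of 5.31, 5.69 and 5.92 likewise stood near 5.76, 5.93 and 6.19. Frat1 differed: untreated BCR-negative and BCR-positive cells differed by -0.07, which was not called (8.70, 7.24 and 7.82 beside 8.72, 7.11 and 8.15), and treated BCR-negative cells were below both in each lymphoma. Ccne1 rose to 8.80, 8.83 and 8.82, beside 8.78, 9.37 and 8.87 in untreated BCR-positive cells.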

How the data were processed

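Per the submitters' processing notes, the authors ran Affymetrix Power Tools with RMA; the deposited tables hold 1 log2 level for each probe set. The labels state no software versions and no build of the annotation. Of 35556 probe sets, 21218 had 1 gene symbol in the platform annotation, 1881 had several and 12457 were not listed. The brightest probe set stood for a gene with several (1386 genes), which left 18820 genes; 21185 of the 21218 matched RefSeq (GRCm38.p6) by Entrez identifier.

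Group and lymphoma were fitted over 12 arrays (6 residual degrees of freedom) with limma 3.58.1 in R 4.3.3 and eBayes. P-values are two-sided, with Benjamini-Hochberg adjustment over all 18820 genes, and genes under 0.05 are called. The interaction came from the same fit. The labels name the lymphoma, so arrays are paired by tumour; deviations of arrays of one lymphoma correlated at 0.813 to 0.907 (18 pairs). No pair of arrays was identical, and array medians were 4.71 to 4.92. The number of arrays limits the precision.

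Named genes were the 15 largest rises and 15 largest falls among genes called with one sign in 3 lymphomas, up to 8 called members of each list (or the 2 of smallest p), a fixed set around GSK3 and the BCR, the genes of smallest p in the contrast and the interaction, and paralogues of called genes. Families added after their values were seen are marked so, as are the autophagy genes and H2-K2. Other genes added after their values were seen are not marked where they stand. Among them are Foxo1, Foxo3, Bcl2l11, Bbc3, Bcl6, Nfkbib, Rela, Fos, Fosb and Jun. Pax5, Ebf1, Prdm1, Mcl1, Ccnd2, Ccnd3, Hmox1 and Lyz2 are others. The members and lists were chosen with earlier results of these data known. Lists are described by counts and medians, with no set test. The fit was run on simulated data with independent noise for each gene and the same added change in every lymphoma. Such data cannot test a response that differs between lymphomas. Alternatives changed the block, the arrays, the dim filter (30th percentile), the probe set rule, the scaling, the variance model and the arrays left out.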

Additional observations from a re-analysis of the deposited data

How the results depend on the processing

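The counts of called genes depended on the fit. Another block or variance model leaves the changes themselves as they are, so there only the calls could differ. Without the replicate block 1 gene was higher and 2 lower; with lymphoma as a random block 23 were higher and 58 lower; with only the 6 BCR-negative arrays, paired, 1 was higher and 28 lower; and under cyclic loess 232 were higher. Leaving out a lymphoma or an array gave 0 to 471 genes higher, 0 to 369 lower and 0 to 2 for the interaction. The cause was not tested, although fewer arrays leave fewer degrees of freedom. A finer block of lymphoma and population, the dim filter, the mean of probe sets, subtracted medians and trended variances gave totals of 938, 799, 686, 762 and 683. In 22 or more of the 24 alternatives 12 genes were called, all lower, among them Mturn, Fbxo32, Crebrf, Nfkbie, Lima1 and Atg13. No called gene changed sign, which many of these alternatives could not have brought about. Medians near 0 changed sign under another scaling: those of the GSK3, lysosome and interferon lists with array medians subtracted, and those of the cyclin and interferon lists under cyclic loess. Limits: 3 tumours, 1 array per group and tumour, dose not given, array signal that saturates or fades near background.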
